A study of Mus musculus with 96 samples.

Results

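Mouse embryonic stem (ES) cells of one culture were compared in groups chosen by their measured levels of the keratin pair Krt8 and Krt18. Each sample was 1 cell of the E14 line, labelled wild-type on a C57BL/6 background and cultured in serum/LIF medium, where LIF is leukaemia inhibitory factor; the cells shared line, genotype and medium, and no treatment or time separates the groups. The 20 keratin-high cells had both Krt8 and Krt18 at 100 or more CPM, a gene's count scaled to a cell's summed gene counts of 1000000. The 24 keratin-low cells had both below 50 CPM, and the 17 remaining cells of the 61 with counts lay between these limits and entered no test. The series lists 96 wells, of which those with 2i cells and those without a cell were not analysed here. RNA was parted from DNA of the same cell by G&T-seq, and the study sets transcript differences between cells beside differences in DNA methylation, which were not analysed here. The labels name no separate cultures, so p-values measure only the spread between cells of this one culture.

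Keratins 8 and 18 are partners: a type II and a type I keratin pair to build the intermediate filaments of simple epithelia. They are among the earliest keratins made in the embryo, where they mark the trophectoderm, and desmosomes tie their filaments to the cell membrane. ES cells in serum/LIF are a mixed population in which naive pluripotency genes such as Zfp42 (Rex1), Esrrb and Nanog vary from cell to cell, and some cells enter differentiation.

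Krt8 (chr15:101996698-102004482, minus strand, GRCm38) and Krt18 (chr15:102028180-102032027, plus strand) lie next to each other, with annotated start sites 23698 bases apart on opposite strands. Because they chose the cells together, the sequence before each start is shown. The bases come from the RefSeq promoter windows of GRCm38.p6, which hold 250 bases upstream of the RefSeq start, and only those that also lie upstream of the GENCODE gene are printed. Krt8 covers chr15:102004483-102004592 on the minus strand and Krt18 covers chr15:102027966-102028179 on the plus strand, each written 5′ to 3′. Capitals mark matches to the motifs listed after the sequences.

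Krt8: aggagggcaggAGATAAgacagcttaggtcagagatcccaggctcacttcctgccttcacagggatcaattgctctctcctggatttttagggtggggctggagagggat

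Krt18: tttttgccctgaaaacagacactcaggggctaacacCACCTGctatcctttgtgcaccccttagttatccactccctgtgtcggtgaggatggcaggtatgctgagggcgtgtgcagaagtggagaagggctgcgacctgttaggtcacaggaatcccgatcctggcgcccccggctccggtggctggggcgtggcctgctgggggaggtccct

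The motifs named here were searched on both strands, and the matches marked do not overlap. The capitals in Krt8 are a GATA motif (AGATAA), which 9.99% of 32851 RefSeq promoter windows of the same length hold. Those in Krt18 are an E-box (CACCTG), held by 17.2% of windows, and the full 250-base window of Krt8 holds 1 match to it as well. The AP-1 motif (TGANTCA, 6.75% of windows), the TATA motif (TATAAA, 12.4%), the GC box (GGGCGG, 32.7%) and the TEAD motif (GGAATG, 12.6%) had no match in either 250-base window. These are matches of letters only.

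The keratin values that chose the cells are given as a description. In keratin-high cells Krt8 ran from 124.7 to 6589 CPM with a median of 1425, and Krt18 from 100.5 to 2266 CPM with a median of 587.9. In keratin-low cells the highest Krt8 value was 41.7 CPM and the highest Krt18 value 21.6 CPM. Of the 24 keratin-low cells, 9 had no count of either keratin and 20 had both below 10 CPM. The cell in well D10 lay just inside the upper limits, with 124.7 CPM of Krt8 and 100.5 of Krt18. A03 lay just outside them, with 86.0 CPM of Krt8 and 106.4 of Krt18. B02 and C09 lay just inside the lower limits, with Krt8 at 41.7 and 40.9 CPM, and G06 just outside, with Krt8 at 54.0 and Krt18 at 26.3 CPM. The 2 keratins parted in some of the cells between the limits. D07 had 558.8 CPM of Krt8 and G01 had 323.1, with no count of Krt18 in either, while A04 had 273.3 CPM of Krt18 and 15.1 of Krt8. Over all 61 cells the Spearman rho of Krt8 with Krt18 was 0.77, and over the 20 keratin-high cells it was 0.89.

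**Figure D1:**
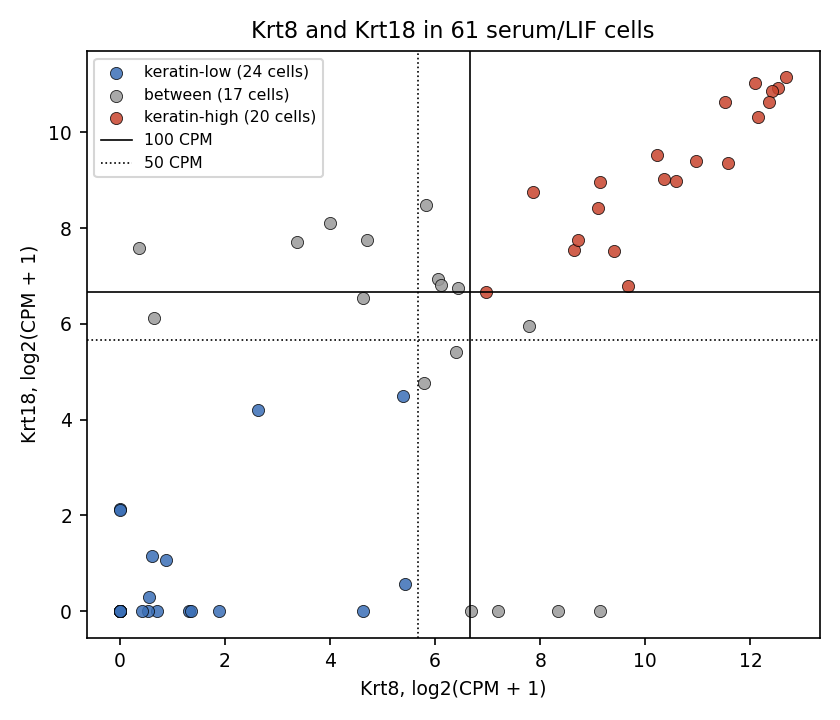
Krt8 (x axis) and Krt18 (y axis) on the log2(CPM + 1) scale, 1 point per cell, with lines at the limits of 50 and 100 CPM. The 20 keratin-high cells lie in the upper right corner, 9 keratin-low cells share the origin, and 4 of the 17 cells between the limits have Krt8 without any Krt18 count.

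Total counts were 2520670 to 6787261 per cell over the 44 cells compared. The keratin groups differed in 2 values of the cells that the keratin limits did not use. Keratin-high cells had more genes detected, 8623 ± 686 (SD, n = 20) against 7906 ± 997 (SD, n = 24; adjusted p = 0.0201, two-sided permutation test with 100000 resamples), and the share of genes detected was a covariate in each gene test. Chromosome 14 took 3.23 ± 0.20% (SD) of their counts against 2.77 ± 0.58% (adjusted p = 0.0034), and 5 keratin-low cells but no keratin-high cell had a chromosome 14 share below 0.75 of the median cell. Neither difference passed the threshold without those 5 cells or without the keratin-low cells high in Zfp42 (adjusted p = 0.216 for each in the latter). Among the 5 cells, 4 were also high in Zfp42, so these checks overlap. Mitochondrial transcripts took 1.83 ± 0.78% against 2.29 ± 0.82% (SD; adjusted p = 0.103). The keratin-high cell A07 had a share of 0.05%, and the next lowest keratin-high cell, E02, had 0.97%. A07 also had the highest keratin-high values of Itga3, Dsp and Fosl2. The 4 upper and 4 lower rows of the plate held 10 and 10 keratin-high cells and 14 and 10 keratin-low cells.

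**Figure D2:**
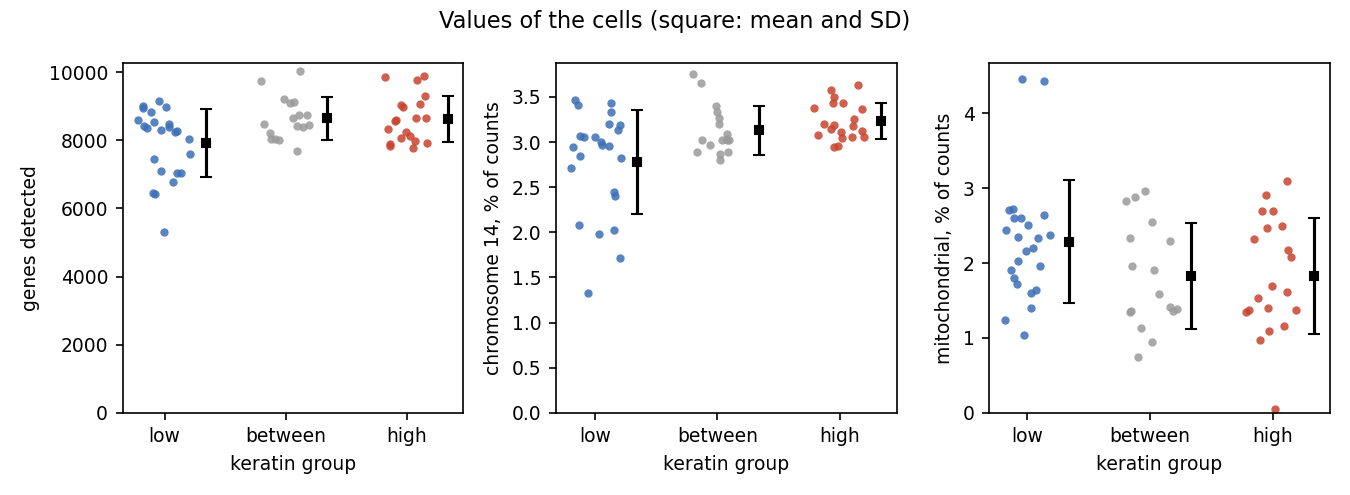
Genes detected (left), chromosome 14 share (middle) and mitochondrial share of counts (right) in each cell of the 3 keratin groups, with the mean and SD as a square and bars. The keratin-low cells reach down to 5317 genes detected and 1.32% of counts from chromosome 14, and the keratin-high cells to 7784 genes and 2.94%.

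By edgeR's quasi-likelihood test (Benjamini-Hochberg adjusted p under 0.05), 133 of 10866 tested genes (1.22%) were higher and 68 (0.626%) were lower in keratin-high cells. Of these, 81 (0.745%) and 32 (0.294%) also passed limma-trend on log2(CPM + 1) values, which on its own called 253 higher (2.33%) and 151 lower (1.39%). Genes called by both are described as having passed both tests, and the text leads with them. No tested gene had ranges of CPM that did not overlap between the groups. Without the 5 chromosome 14-low cells edgeR called 79 higher and 69 lower genes. Of the 133 higher and 68 lower calls, 72 and 56 were made again. Of the 48 named genes called with all cells, 36 were called again.

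The keratin-low group was mixed in naive pluripotency. Zfp42 was at 483 to 1755 CPM in 11 of the 24 keratin-low cells and at or below 68.1 CPM in the other 13. The 11 included 4 of the 5 chromosome 14-low cells. No keratin-high cell exceeded 75.2 CPM of Zfp42. Each gene was therefore also fitted with the 11 Zfp42-high cells left out, 20 cells against 13, where edgeR called 64 higher (0.589%) and 27 lower (0.248%) genes. Of the 201 calls made with all 44 cells, 39 higher and 22 lower ones were called again in this smaller set, and 199 kept their sign.

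The third simple epithelial keratin, Krt19 (chr11:100140810-100148665), was high in most keratin-high cells and nearly absent from keratin-low cells. It ran from 0 to 1087 CPM with a median of 136.4 in keratin-high cells and was detected in 16 of 20. In keratin-low cells it was detected in D04 alone, at 60.8 CPM, and the other 23 had no count. The 4 keratin-high cells without Krt19 overlap the keratin-low group. The mean was 272 ± 317 CPM (SD, n = 20) against 2.53 ± 12.4 (SD, n = 24). Krt19 passed both tests, with an edgeR log2 difference of 9.66 ± 1.68 (SE, adjusted p = 0.000468) and a limma-trend difference of 5.53 ± 0.85 (SE, adjusted p = 7.63e-05). It was also called without the Zfp42-high cells (adjusted p = 0.0305). Where a gene is at or near 0 in one group, the edgeR difference depends on the small prior count that edgeR adds, and its size is not a fold.

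Other keratins were sparse. Krt7, a keratin of simple and glandular epithelia, had counts in 4 keratin-high cells, up to 142.4 CPM, and in 0 of 24 keratin-low cells, which allows a share of cells with a count of up to 12.5% and does not limit the share that express it. It failed the filter of at least 10 counts in at least 10 of 61 cells. Among 9 keratins of stratified epithelia and other tissues only Krt10 passed that filter, and it was not called (log2 difference 0.36 ± 1.20, SE, adjusted p = 0.994). Of 8 tested members of a list of other intermediate filament genes and lamins, edgeR called none, with 3 at an unadjusted p under 0.05, and limma-trend called Nes and Lmna higher and Ina lower.

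Genes that anchor keratin filaments lay mostly above 0. Of 10 tested members of the desmosome list, 9 had a positive difference, with a median of 1.44 on the log2 scale against 0.015 over all tested genes. Dsc2, a desmosomal cadherin, passed both tests. It ran from 0 to 638.1 CPM (median 27.5) with counts in 13 of 20 keratin-high cells and in 0 of 24 keratin-low cells. Its mean was 3463-fold the level that 3 counts over the keratin-low group would give. This bound covers counting error only, and 0 of 24 cells allows a share of cells with a count of up to 12.5%. Dsp encodes desmoplakin, the plaque protein that binds keratin filaments. It was detected in 17 of 20 keratin-high cells, with a median of 133 CPM, and in 4 of 24 keratin-low cells, where D04 reached 257.4. Dsp was called by limma-trend (adjusted p = 0.0077) and not by edgeR (log2 difference 3.11 ± 1.48, SE, adjusted p = 0.469). Limma-trend also called Dsg2, Plec and Perp higher, so the desmosome genes had 1 edgeR call and 5 limma-trend calls among 10. Of all tested genes edgeR called 1.22% and limma-trend 2.33% higher. The edgeR call was Dsc2, which passed the filter only through cells outside the keratin-low group. The median was unchanged at 1.44 with Dsc2 set to its bound.

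Epithelial junction genes also lay mostly above 0. Of 27 tested members 23 lay above 0, with a median of 1.15, and edgeR called Ctnna1 alone, the alpha-catenin that links cadherins to actin (log2 difference 1.15 ± 0.30, SE, adjusted p = 0.0286). Ctnna1 ran from 129.6 to 2136 CPM (median 701.2) in keratin-high and from 59.8 to 1092 CPM (median 365.6) in keratin-low cells, and it missed the threshold in limma-trend (adjusted p = 0.0539) and, in edgeR, without A02 or H01. Limma-trend called 5 of the 27 higher, against 2.33% of all tested genes. They included the claudins Cldn6 and Cldn7, the tight junction protein gene Cgn, and Ap1m2. Cldn6 was detected in all 20 keratin-high cells (57.7 to 531.7 CPM, median 265.8) and in 12 of 24 keratin-low cells (up to 300.2 CPM). Epcam and Cdh1, defining genes of epithelia, were not called by either test. Epcam had medians of 327.9 and 276.8 CPM in keratin-high and keratin-low cells (log2 difference 0.29 ± 0.50, SE, adjusted p = 0.984). Its sign turned without the Zfp42-high cells (-0.13) and with the naive score as a covariate (-0.15). Cdh1, E-cadherin, had medians of 357.6 and 126.9 CPM (log2 difference 1.04 ± 0.65, SE, adjusted p = 0.726).

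Actin and contractility genes lay almost all above 0. Of 25 tested members of a list of actin genes and targets of SRF or YAP, 24 lay above 0, with a median of 1.88. There were 5 that passed both tests, all higher: Actb, Actg1, Tpm1, Myl12a and Cald1, and limma-trend called 13 in all. Over all tested genes, 0.745% were higher in both tests and 2.33% in limma-trend. Tpm1, a tropomyosin that stabilises actin filaments, ran from 149.8 to 3346 CPM (median 1462) in keratin-high cells and from 1.08 to 1211 CPM (median 118.8) in keratin-low cells. The lowest keratin-high cells lay among the upper keratin-low cells. The edgeR log2 difference of Tpm1 was 2.51 ± 0.51 (SE, adjusted p = 0.00298).

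Actb, cytoplasmic beta-actin, was present in each cell and shifted as a whole. It ran from 5696 to 25700 CPM (median 12620) in keratin-high and from 3066 to 13030 CPM (median 7021) in keratin-low cells, a log2 difference of 0.87 ± 0.16 (SE, adjusted p = 0.00079). Myl12a, a regulatory light chain of non-muscle myosin, had medians of 1608 and 638.9 CPM and a log2 difference of 1.22 ± 0.20 (SE, adjusted p = 0.000329). Both were also called without the Zfp42-high cells (adjusted p = 0.0161 for Actb and 0.0392 for Myl12a), whereas Tpm1 (0.0887), Cald1 (0.115) and Actg1 (0.269) were not. Cald1, the actin-binding protein caldesmon, had medians of 617.1 and 21.9 CPM and was not called without the chromosome 14-low cells, nor without A02 or G05. Among limma-trend calls, Cnn2 (calponin 2), Tagln2 and Ccn1 had edgeR adjusted p-values of 0.0695, 0.0561 and 0.0741. Tagln, transgelin, was detected in 19 of 20 and 13 of 24 cells, with medians of 382.8 and 0.46 CPM. It passed limma-trend (adjusted p = 0.00113) and missed in edgeR (log2 difference 3.51 ± 1.02, SE, adjusted p = 0.0617).

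Genes of S100 proteins and their membrane partners also lay above 0 for the most part. Of 18 tested members of the list of annexins, S100 proteins and galectins, 17 lay above 0, with a median of 2.27 (log2). S100a6, S100a10, S100a11, Lgals1 (galectin 1) and Ahnak (a large scaffold that binds S100a10) passed both tests. These were 5 of 18, against 0.745% of all tested genes that were higher in both. Msn, moesin, which links membrane to actin, was called by edgeR alone. S100a6 ran from 0 to 1149 CPM (median 336.2) in keratin-high cells and from 0 to 157.7 CPM (median 6.91) in keratin-low cells, with counts in 19 of 20 and 13 of 24 cells. Its edgeR log2 difference was 4.22 ± 0.99 (SE, adjusted p = 0.0124) and it was called without the Zfp42-high cells (adjusted p = 0.041). S100a10 had medians of 1431 and 159 CPM (log2 difference 2.22 ± 0.44, SE, adjusted p = 0.0021), and S100a11 170.7 and 27.3 CPM (2.31 ± 0.56, SE, adjusted p = 0.016). Without the Zfp42-high cells these had adjusted p-values of 0.0865 and 0.0776. The annexins Anxa1, Anxa3 and Anxa5 were called by limma-trend only, as in Anxa3, with medians of 962.8 and 1.27 CPM. Ahnak and Msn lay near the threshold and each lost the edgeR call without any 1 of 18 of the 20 keratin-high cells, as Actg1 did for 14. These 3 genes were also not called without the chromosome 14-low cells or with the plate rows as a term.

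The 15 largest positive differences, among called genes with counts in at least 50% of keratin-high cells, included genes of adhesion, matrix and signalling. Itga3 (chr11:95044474-95076801), the alpha chain of a laminin receptor, had the smallest limma-trend p of all tested genes. It ran from 0 to 619.3 CPM (median 144.9) in keratin-high cells, with counts in 18 of 20, and was detected in 5 of 24 keratin-low cells. Among these only B02, the keratin-low cell nearest the Krt8 limit, was above 10 CPM, at 81.1. The edgeR log2 difference was 6.86 ± 1.08 (SE, adjusted p = 0.000158) and the limma-trend difference 5.70 ± 0.65 (SE, adjusted p = 2.84e-07). Tgfb2 (chr1:186622792-186705989), a TGF-beta ligand, ran from 0 to 398.2 CPM (median 39.2) with counts in 15 of 20 keratin-high cells. It had counts in 2 of 24 keratin-low cells, none above 0.74 CPM, and the limma-trend difference was 4.22 ± 0.63 (SE, adjusted p = 5.46e-05; edgeR adjusted p = 8e-07).

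Of these genes 5 more had no count in any keratin-low cell. Their means were set against 3 counts over the keratin-low group, a bound for counting error only. The ratios were 1551 for Tinagl1 (a matrix protein of basement membranes), 656 for Dgkk (a diacylglycerol kinase) and 597 for Fosl2. For Emp2 (a tetraspan membrane protein of epithelia) and Cav2 (caveolin 2) the ratios were 591.6 and 566.3. These 5 genes were detected in 10 to 12 of 20 keratin-high cells and passed both tests, and edgeR also called them without the Zfp42-high cells. Like Dsc2, they passed the filter only through cells outside the keratin-low group. For these genes keratin-low cells are all at 0 in both fits, so the smaller fit is no separate support. Tgfb2, Gata3 and Myo18a also passed the filter only through such cells. Their highest keratin-low values, 0.74, 1.18 and 0.22 CPM, lie below 10 counts. Calls of this kind restate in part how the genes entered the tests. Myo18a (an unconventional myosin), Pea15a (an adaptor that binds ERK), Nt5e (the ecto-nucleotidase CD73) and Col7a1 (collagen of anchoring fibrils) passed both tests as well. Of these, Nt5e and Col7a1 were not called without the Zfp42-high cells (adjusted p = 0.115 and 0.173), and Nt5e was not called without the keratin-high cell H01. Timp3, a metalloprotease inhibitor, was called by edgeR alone. Its highest keratin-high cell had 606.9 CPM against a median of 0.31.

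**Figure D3:**
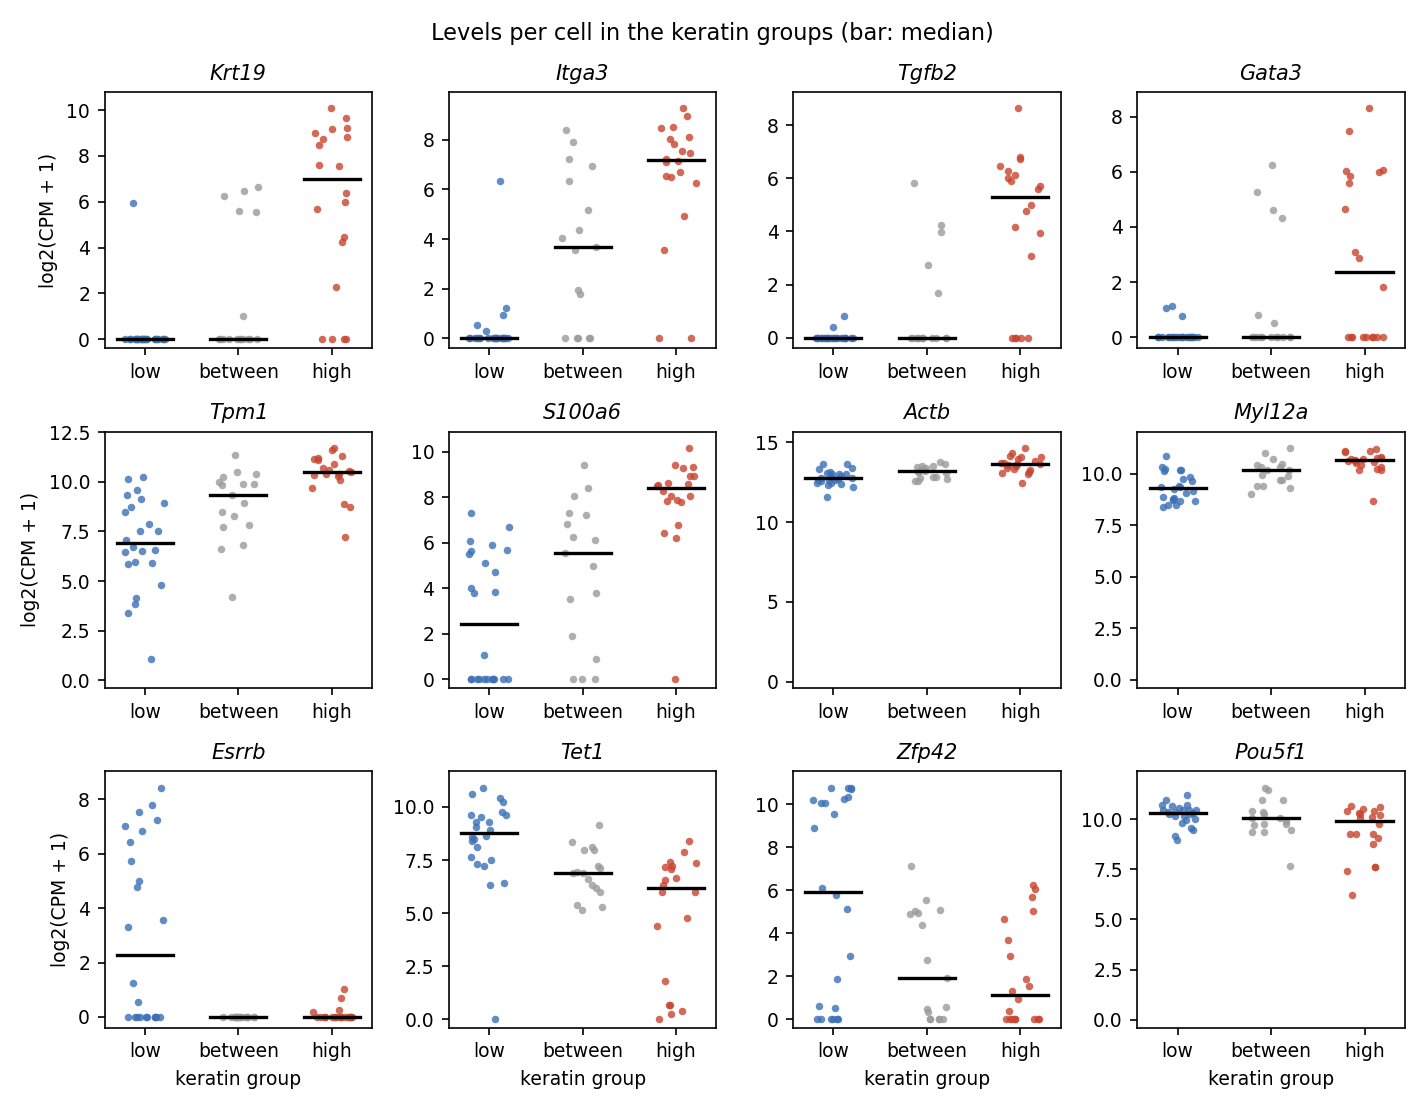
Levels on the log2(CPM + 1) scale of 12 genes in each cell of the keratin-low, between and keratin-high groups, 1 point per cell with the median as a bar. Krt19, Itga3 and Tgfb2 are near 0 in nearly all keratin-low cells, Actb and Myl12a are shifted as a whole, and high Zfp42 is found in 11 keratin-low cells.

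Gata3 and Fosl2, which encode transcription factors, were higher and passed both tests. Gata3 (chr2:9857078-9890034), a factor of trophectoderm and several epithelia, ran from 0 to 315.7 CPM (median 4.45) with counts in 11 of 20 keratin-high cells. It had counts in 3 of 24 keratin-low cells, at most 1.18 CPM. The edgeR log2 difference was 7.20 ± 1.39 (SE, adjusted p = 0.00169) and the limma-trend difference 2.48 ± 0.66 (SE, adjusted p = 0.0233). Fosl2, a subunit of AP-1, had counts in 10 of 20 keratin-high cells, up to 114.8 CPM. It was the one edgeR call among 12 tested AP-1 and immediate-early genes, of which 11 lay above 0 with a median of 1.97. Limma-trend called Fosl2, Junb and Atf3, a stress-induced factor of the same family, which was detected in 13 of 20 and 2 of 24 cells (edgeR log2 difference 4.11 ± 1.42, SE, adjusted p = 0.17). Fosl1 had counts in 3 keratin-high cells and failed the filter. Among 11 genes of FGF and ERK feedback only Phlda1 passed both tests, with medians of 5.06 and 0 CPM and counts in 16 of 20 and 3 of 24 cells. Phlda1 was not called without G03, nor without the chromosome 14-low cells.

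Naive pluripotency genes lay below 0 in keratin-high cells where the Zfp42-high cells were included. Of 15 tested members 14 lay below 0, with 3 edgeR calls and a median of -3.19 on the log2 scale, and without the Zfp42-high cells the median was 0.39. Those cells were left out by the level of Zfp42, a member of this list, so the second median is no separate result on the list. Esrrb (chr12:86361117-86521628), an orphan nuclear receptor of the naive network, had counts in 4 of 20 keratin-high cells, at most 1.02 CPM. In keratin-low cells it had counts in 14 of 24, up to 344.9 CPM, and in the cells between the limits in none of 17. It thus passed the filter only through keratin-low cells. Esrrb passed both tests (edgeR log2 difference -8.58 ± 1.49, SE, adjusted p = 0.000468), and without the Zfp42-high cells its difference was -3.72 (adjusted p = 0.182).

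Klf2, a Kruppel-like factor, and Zfp42 were called lower by edgeR and not by limma-trend. Zfp42 had medians of 1.21 and 60.9 CPM and an edgeR log2 difference of -5.06 ± 1.26 (SE, adjusted p = 0.0203; limma-trend adjusted p = 0.194). It was not called with the plate rows as a term, and it was 0.18 without the Zfp42-high cells, which removes the cells by this gene's own level. Nanog had counts in 9 of 20 keratin-high cells, 15 of 17 between and 23 of 24 keratin-low cells, with medians of 0, 123 and 235.2 CPM. It was called by limma-trend (adjusted p = 0.0106) and not by edgeR (log2 difference -1.81 ± 0.98, SE, adjusted p = 0.59). Keratin-low cells thus held cells with and without naive gene expression, while the keratin-high cells held none with high Zfp42.

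General pluripotency genes stayed detectable in keratin-high cells. Pou5f1 (Oct4), the factor that marks pluripotent cells, had counts in all 61 cells and ran from 74.1 to 1630 CPM (median 965.6) in keratin-high and from 497.6 to 2366 CPM (median 1283) in keratin-low cells. It was called by neither test (edgeR log2 difference -0.55 ± 0.26, SE, adjusted p = 0.466; limma-trend adjusted p = 0.0987). Sall4 was detected in all 44 cells compared. All 15 tested members of the list lay below 0, with a median of -1.03, which was -0.75 without the Zfp42-high cells. The telomere and replication-timing factor Rif1 was the member that passed both tests, with medians of 654 and 1459 CPM (edgeR log2 difference -1.03 ± 0.26, SE, adjusted p = 0.0245). Rif1 was not called without the Zfp42-high cells (adjusted p = 0.418), without the chromosome 14-low cells, or with the naive score or the mitochondrial share as a covariate.

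Limma-trend called 5 of these 15 genes lower: Rif1, Sox2, Utf1, Dppa5a and Gdf3. Sox2 ran from 0 to 52.9 CPM (median 11.3) in keratin-high and from 0 to 225.7 CPM (median 86.0) in keratin-low cells (edgeR log2 difference -2.41 ± 0.82, SE, adjusted p = 0.157; limma-trend adjusted p = 0.00553). Dppa5a, an RNA-binding protein of pluripotent cells, had medians of 16.7 and 5368 CPM (edgeR adjusted p = 0.135, limma-trend adjusted p = 0.000545). The summed level of the list was 948.1 to 9899 CPM (median 3941) in keratin-high and 4211 to 18690 CPM (median 12780) in keratin-low cells. Of the ES cell markers, Pou5f1 and Sall4 were thus present throughout both groups, while Sox2 was undetected in 5 keratin-high cells and Nanog in 11.

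Other genes with the largest negative differences included Morc1, Rpl10l, Alpl and Fbxo15, which passed both tests. Morc1 (chr16:48431237-48630900), a germline ATPase that silences transposons, had counts in 1 of 20 keratin-high cells, at 0.25 CPM. It was detected in 16 of 24 keratin-low cells, up to 834.8 CPM with a median of 29.6. Its adjusted p was 1.39e-06 in edgeR and 0.0167 in limma-trend, and it was called without the Zfp42-high cells (adjusted p = 0.00112). Morc1 and Jam2 had fewer than 10 counts in each cell outside the keratin-low group. Both thus passed the filter only through keratin-low cells. Alpl, the alkaline phosphatase used to stain ES cell colonies, had counts in 3 of 20 and 17 of 24 cells with medians of 0 and 53.7 CPM (edgeR log2 difference -6.82 ± 1.37, SE, adjusted p = 0.00251). Fbxo15, an F-box gene used as a pluripotency reporter, had medians of 0 and 138 CPM (adjusted p = 0.0177).

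Jam2, Rpl39l and Tdrd12 also passed both tests. Tdrd12 lay near the threshold and was not called by edgeR without any 1 of 19 of the 20 keratin-high cells, nor without the chromosome 14-low cells. Tep1, Spink1, Irf9, Gm14444, the transcript 4930548H24Rik and the unnamed gene ENSMUSG00000086967 passed edgeR alone. Rpl10l and Rpl39l are close copies of ribosomal protein genes, so reads shared with those genes make their counts uncertain. Only Morc1 and Tep1 among the 18 named genes that were lower were called again without the Zfp42-high cells.

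Among 11 tested genes of DNA methylation and demethylation, Tet1 (chr10:62804570-62908996) passed both tests. This dioxygenase, which oxidises 5-methylcytosine, ran from 0 to 340.8 CPM (median 71.1) in keratin-high cells and from 0 to 1924 CPM (median 437.3) in keratin-low cells. The cells between the limits had a median of 117.8 CPM. The edgeR log2 difference was -2.68 ± 0.71 (SE, adjusted p = 0.0321), and neither leaving out the Zfp42-high cells (-1.92, adjusted p = 0.502) nor leaving out the chromosome 14-low cells kept the call. Of the 11 genes 10 lay below 0, with a median of -1.05. Dnmt3l, the cofactor of de novo methylation, had counts in 3 of 20 and 17 of 24 cells (log2 difference -1.60 ± 1.33, SE, adjusted p = 0.881). Dnmt3b, a de novo methyltransferase, had medians of 291 and 414.7 CPM (-1.23 ± 0.61, SE, adjusted p = 0.509).

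**Figure D4:**
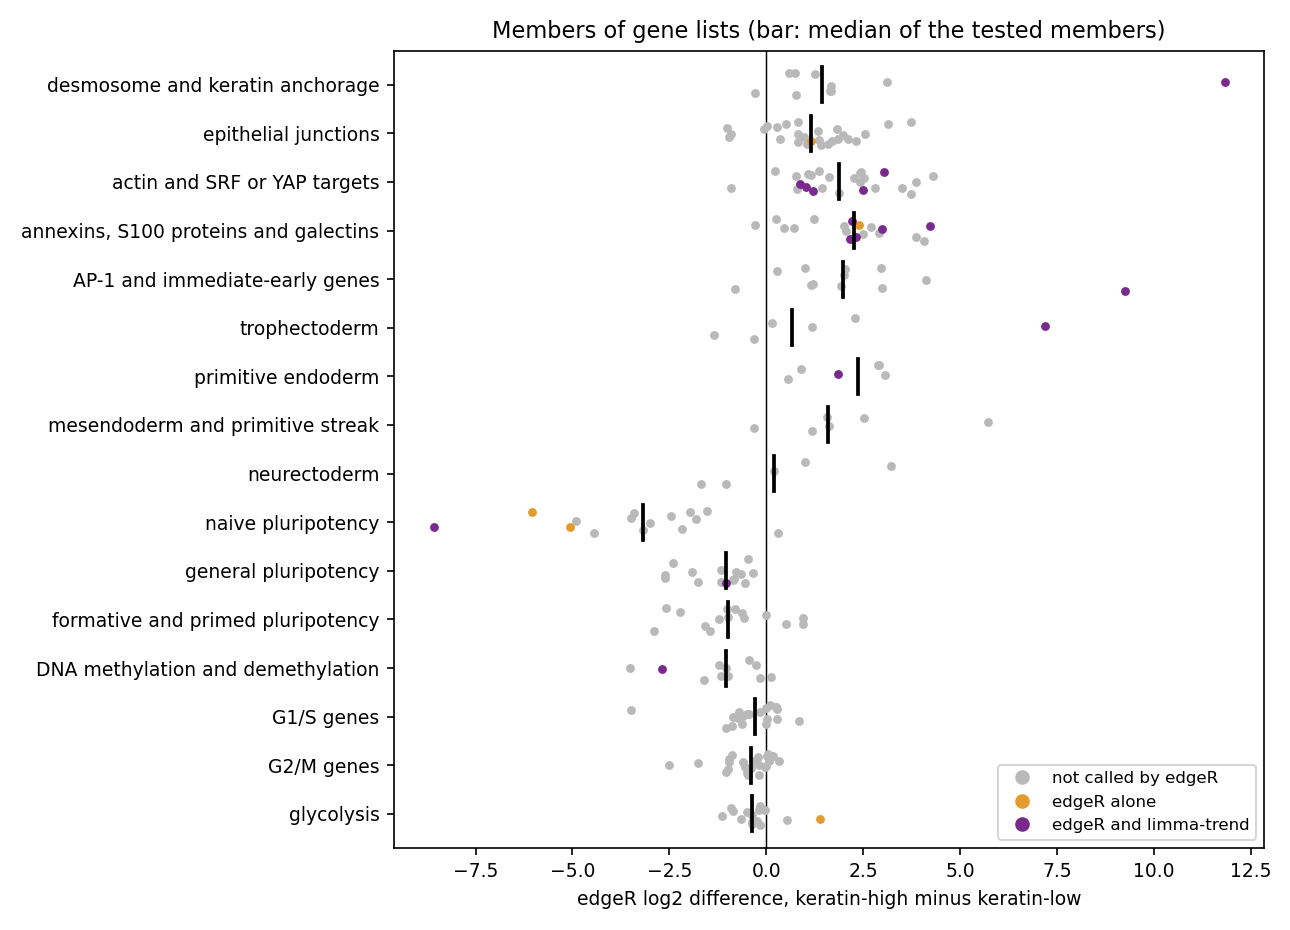
The edgeR log2 difference, keratin-high minus keratin-low, of each tested member of 16 gene lists, coloured by the tests passed, with the median of each list as a bar. Medians lie at 1.44 for desmosome genes, 1.88 for actin genes and 2.27 for annexins, S100 proteins and galectins, at -3.19 for naive genes, and the points of Dsc2 and Fosl2, which have no count in keratin-low cells, depend on the prior count.

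Markers of other cell types were present in part. Of 17 trophectoderm genes 6 were tested, with 4 above and 2 below 0 and a median of 0.67, and Gata3 alone was called. Their summed level was 2.06 to 1867 CPM (median 396.3) in keratin-high and 0 to 1092 CPM (median 117.3) in keratin-low cells. Cdx2, a defining trophectoderm factor, was detected in 11 of 20 and 4 of 24 cells (log2 difference 2.29 ± 1.69, SE, adjusted p = 0.832). Elf5, Tpbpa and Plac1 had no count in any of the 44 cells. Of 21 primitive endoderm genes 6 were tested and all lay above 0. Sparc, a matrix glycoprotein, passed both tests, with medians of 788.9 and 154.8 CPM (edgeR log2 difference 1.85 ± 0.46, SE, adjusted p = 0.0209), and limma-trend also called Lrp2. Sparc was not called by edgeR with the plate rows as a term or without the Zfp42-high cells (adjusted p = 0.0518). The summed level was 237.6 to 3280 CPM (median 1480) against 45.3 to 977.8 CPM (median 425). Among the defining factors, Gata4 and Sox17 had no count in any of the 44 cells, and Gata6 had counts in 2 keratin-high cells, at most 21.0 CPM.

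Of 18 fibroblast genes the 3 tested were Vim, Fn1 and Tagln, which edgeR did not call, with Tagln at an unadjusted p under 0.05. Vim had medians of 65.3 and 15.3 CPM (adjusted p = 0.842) and Fn1, fibronectin, 214.2 and 64.5 CPM (adjusted p = 0.546). The summed level was 101.9 to 5717 CPM (median 850.3) against 3.1 to 1242 CPM (median 184.5). Collagen genes of this list were sparse, with Col1a1 in 6 keratin-high and 1 keratin-low cells, Col1a2 in 5 and 0 and Col5a1 in 8 and 0, while Postn, Fap and Mgp had no count in any of the 44. Of 14 neurectoderm genes 5 were tested and edgeR called none, with 1 at an unadjusted p under 0.05 and limma-trend calling Nes. This list had summed levels of 7.16 to 434.3 and 0 to 280.4 CPM and no count of Sox1 or Hes5.

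Of 16 mesendoderm genes 6 were tested and neither test called any, with 2 at an unadjusted edgeR p under 0.05 and summed levels of 0 to 1567 and 0 to 1563 CPM. T (Brachyury) had counts in 13 of 20 and 13 of 24 cells (log2 difference 1.19 ± 1.48, SE, adjusted p = 0.961). Mixl1 had counts in 10 and 2 cells (5.73 ± 2.07, SE, adjusted p = 0.203). The 2 formative markers Fgf5 and Otx2 had medians of 0 in each group (adjusted p = 0.988 and 0.993), and neither test called any of the 15 tested formative and primed genes (limma-trend median -0.81, with 2 at an unadjusted edgeR p under 0.05). The part of other cell types in the keratin differences was not tested.

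Gene groups of proliferation and metabolism gave few calls. Neither test called any of 20 tested G1/S genes (median -0.30), 25 G2/M genes (median -0.39), 12 p53 targets (median 0.45), 6 Wnt targets (median 0.65) or 10 Nodal, TGF-beta and BMP targets (median 0.72). At an unadjusted edgeR p under 0.05 these held 3, 0, 1, 0 and 0 genes, against 1056 of 10866 over all tested genes. The 15 tested glycolysis genes had a median of -0.36, with 13 below 0 and 5 at an unadjusted edgeR p under 0.05. Against the sign of most of them, edgeR called the glucose transporter Slc2a3 higher (log2 difference 1.38 ± 0.38, SE, adjusted p = 0.0471), which limma-trend did not (adjusted p = 0.249). The edgeR call of Slc2a3 ended without any 1 of 12 of the 20 keratin-high cells, without the chromosome 14-low cells and with the plate rows as a term. Limma-trend called Gapdh and Pkm lower, at differences of -0.81 ± 0.25 and -0.45 ± 0.14 (SE). Of 13 interferon and antigen presentation genes, limma-trend called B2m, the light chain of class I MHC, higher, with medians of 133 and 13.9 CPM (edgeR adjusted p = 0.058).

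Without the Zfp42-high cells, 39 of the 133 higher and 22 of the 68 lower calls over all genes were made again. The named genes, which were chosen for size or by list, had other shares. Of the 48 named genes called by edgeR, 15 of 30 higher and 2 of 18 lower ones were called in this smaller set. The 15 were Krt19, Dsc2, Tinagl1, Tgfb2, Dgkk, Emp2, Cav2, Fosl2, Myo18a, Gata3, Itga3, Pea15a, Actb, Myl12a and S100a6. Among them Dsc2, Tinagl1, Dgkk, Emp2, Cav2 and Fosl2 had no keratin-low count in either set. Tgfb2, Gata3 and Myo18a had fewer than the 10 counts of the filter in each keratin-low cell. The median of the actin list was 1.62 and that of the S100 and annexin list 1.93 in this set, against 0.041 over all tested genes. With a score of the 15 tested naive genes as a covariate over all 44 cells, 17 of 30 higher and 5 of 18 lower named genes were called. Over all genes, 45 of the 133 higher and 27 of the 68 lower calls were made again with this score. That score includes Zfp42, Esrrb and Klf2 themselves.

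**Figure D5:**
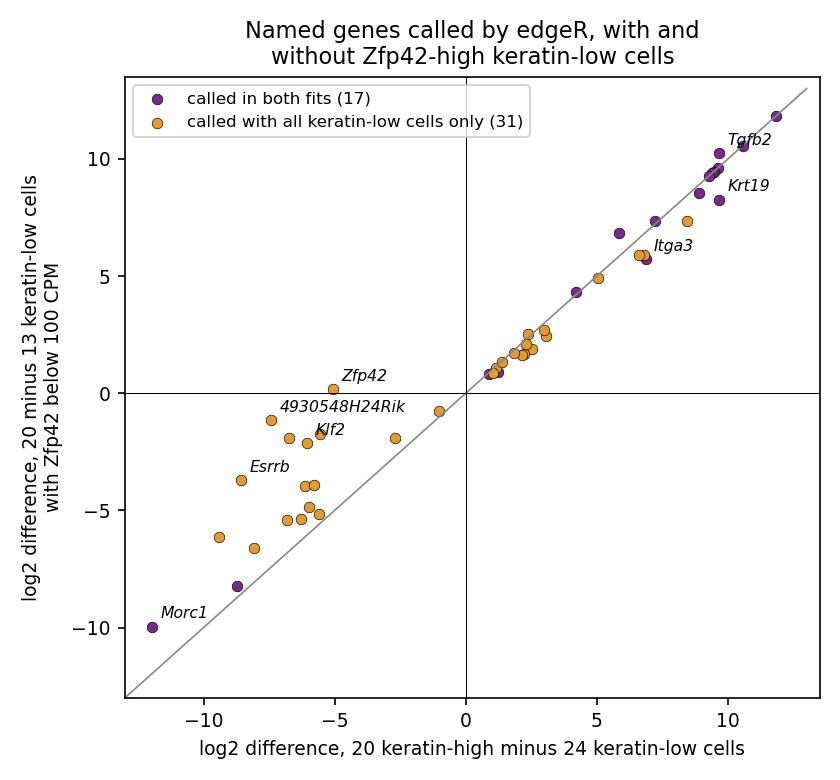
The edgeR log2 difference of each of 48 named genes called with all 44 cells (x axis) and without the 11 Zfp42-high keratin-low cells (y axis), with the line of equal values. The 15 higher genes called in each fit lie near the line, most lower genes lie closer to 0 on the y axis, and Zfp42 moved from -5.06 to 0.18.

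For 4 genes chosen after their values were seen, the cells between the limits had medians between those of the groups, which was not tested. Itga3 was detected in 5 of 24 keratin-low, 12 of 17 between and 18 of 20 keratin-high cells, with medians of 0, 11.99 and 144.9 CPM. Tpm1 had medians of 118.8, 655.8 and 1462 CPM, S100a6 of 6.91, 45.1 and 336.2 CPM, and Tet1 of 437.3, 117.8 and 71.1 CPM. Krt19 and Tgfb2 had a median of 0 in the between cells and were detected in 6 and 5 of 17. Other named genes had another order. The between median of Pea15a, 62.4 CPM, lay above the keratin-high median of 57.2. That of Slc2a3, 374.2 CPM, lay below the keratin-low median of 520.6.

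Among the 20 keratin-high cells, gene levels were set beside the keratin level as Spearman rho with the mean log2(CPM + 1) of Krt8 and Krt18. This covered list members and named genes with counts in at least 20 of 61 cells. Sparser named genes such as Dsc2, Morc1 and Esrrb were left out. The keratin values also chose the cells, so the rho values are a description and were not tested. Only the extremes are named. The highest values were those of Lgals3 (0.82), Anxa2 (0.74), Anxa5 (0.71), Krt19 (0.71) and Tgfb2 (0.70). The most negative were those of Tet1 (-0.74), Utf1 (-0.73), Pou5f1 (-0.73), Dppa5a (-0.72) and L1td1 (-0.72). Over the same 20 cells the keratin mean had a rho of 0.38 with total counts, -0.15 with genes detected and -0.53 with the naive score. All values of a cell share its library and depth. Over all 61 cells the genes of this set most like the keratins were Tpm1 (0.80), Itga3 (0.76), B2m (0.74), Cald1 (0.74), Cnn2 (0.74) and Ahnak (0.74), and the least like were Dppa5a (-0.72) and Tet1 (-0.69). Some of these genes were named for their difference between the keratin groups, so a high rho over 61 cells partly restates that choice. Values over all tested genes were not computed.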

How the data were processed

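RNA of single cells was sequenced after G&T-seq and Nextera XT library preparation, per the labels' protocols. The deposited table holds raw counts per gene made by the authors, and GSNAP, SAMtools 0.1.18, bedtools 2.19.1 and DESeq2 with GRCm38 are named in the submitters' processing notes. Of the counting rule, the annotation release and strandedness, none is stated: not given in the sources used here. The labels name no molecular identifiers, so limits from counts cover counting error only. The deposited normalized values were not used. Gene symbols matched 34880 of 36205 identifiers, and coordinates are from GENCODE M21.

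A gene needed 10 or more counts in 10 or more of 61 cells (10868 genes), and the 10866 without Krt8 and Krt18 were fitted with edgeR 4.0.16 (TMM, quasi-likelihood, share of genes detected as covariate). SE is the absolute difference over the square root of F, an approximation. On simulated counts edgeR made more false calls than its threshold allows and limma-trend (limma 3.58.1, log2(CPM + 1)) did not. Genes passing both tests were therefore put first, a choice made after the simulated data were seen. The simulated counts had shuffled groups without the mixture seen in the keratin-low cells, so the rate of false calls in the real cells is not known for either test. DESeq2 1.42.0 was an alternative. Single values of cells were tested by two-sided permutation with 100000 resamples, adjusted over 5 values. Named genes were the 15 largest differences in each direction among edgeR calls with counts in at least 50% of cells of the higher group, every called list member, and a fixed set of 25 markers. The members and lists were chosen with earlier results of these data known.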

Additional observations from a re-analysis of the deposited data

Results flagged for a closer look

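The deposited counts include 95 rows of ERCC spike-in names, which no comparison used. In 8 of 61 cells there was any such count, and the highest sum in a cell was 4 counts, above the 3 counts that a count of 0 allows. The sums were 0.45 ± 1.05 counts (SD) in keratin-high and 0.21 ± 0.51 counts (SD) in keratin-low cells (adjusted p = 0.45, two-sided permutation test).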

How the results depend on the processing

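Of 133 higher and 68 lower edgeR calls, the counts were 253 and 151 in limma-trend, 1076 and 1007 with no filter on level, 31 and 13 with the stricter filter (10 counts in 30 cells), 76 and 28 with the naive score as covariate, and 64 and 27 without the Zfp42-high keratin-low cells, an alternative chosen after seeing the data. Without chromosome 14-low cells 79 were higher, and with a slope on the keratin mean over 61 cells 120 were lower. Leaving out each keratin-high cell in turn gave 103 to 135 higher and 64 to 89 lower calls. The cell in D07 lies between the keratin limits, so leaving it out gave no value. The 201 calls kept their sign in 12 of 14 alternatives where all were tested or, under the stricter filter, in the 67 tested. The difference in genes detected was 447.3 without chromosome 14-low cells and 492.5 without Zfp42-high cells, and that in the chromosome 14 share was 0.21 and 0.17 percentage points, and none of these 4 values passed the threshold. Signs turned for Zfp42 (1.26 with the naive score, 0.18 without Zfp42-high cells), Epcam (-0.15 and -0.13) and Fgf5 (0.14 with limits of 200 and 25 CPM). Both alternatives for Zfp42 use its own level. The cause was not tested. The alternatives without cells test fewer cells, and the chromosome 14-low and Zfp42-high cells left out have 4 in common. Dropout limits detection: a gene without counts in a group may be expressed there. No paired analysis was possible because the replicate names are wells and the groups share none.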

Other observations

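Some gene families outside the lists stood out after their values were seen, so they are described without support for any claim. Of 8 tested Tceal and Bex genes, small X-linked genes, 4 passed both tests and were higher in keratin-high cells: Bex1, Bex3, Tceal7 and Tceal9. Each was detected in all 44 cells. Bex1 had medians of 1113 and 396.4 CPM (edgeR log2 difference 1.37 ± 0.27, SE, adjusted p = 0.00245), and Tceal9 of 791 and 303.7 CPM (1.48 ± 0.32, SE, adjusted p = 0.0053). Without the Zfp42-high cells their adjusted p-values were 0.115 and 0.21.

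Of 8 tested integrin subunits, Itga3 and Itgav passed both tests and limma-trend also called Itga5. Itgav had counts in 20 of 20 and 13 of 24 cells with medians of 52.4 and 0.89 CPM (edgeR adjusted p = 0.0469, and 0.28 without the Zfp42-high cells). The 2 tested caveolin and cavin genes, Cav2 and Cavin1, passed both tests. Cavin1 had medians of 103.3 and 0 CPM, with counts in 19 of 20 and 7 of 24 cells (edgeR adjusted p = 0.0446, and 0.153 without the Zfp42-high cells). All 7 tested Platr transcripts, noncoding RNAs named for their link to pluripotency, lay below 0. Platr16 and Platr20 passed both tests, and Platr20 had no count in any keratin-high cell and counts in 10 of 24 keratin-low cells. Without the Zfp42-high cells Platr20 was still called (adjusted p = 0.0478), Platr16 was not (-1.31, adjusted p = 1.00) and Platr27 turned from -0.81 to 6.14 and was called higher (adjusted p = 0.0312), with counts in 3 of 20 keratin-high cells.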
